A study of Mus musculus with 37 samples.

Results

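The genes examined were Dnmt1, Uhrf1, Dnmt3a, Dnmt3b, Dnmt3l, Tet3, Dppa3, Zfp57 and Trim28, which write, maintain, remove or protect DNA methylation in the oocyte and the early embryo. They are 9 of the 29294 gene symbols listed in any of 4 RNA-seq tables. They were taken by name and not by their values, though with earlier results of these data known. Each had 1 row in every table. The study asked how the Hira complex, which deposits the histone variant H3.3 outside DNA replication, acts in the oocyte, and inactivated its subunits Hira and Cabin1 separately. Mice on a C57BL/6 background carried floxed Hira (line ZH) or floxed Cabin1 (line CabZ) together with Zp3-Cre, a Cre driven by a promoter active in growing oocytes. Deletion is thus limited to the germline of the female, and the genotype given for a 2-cell embryo is that of the female it came from.

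RNA-seq covered fully grown germinal vesicle (GV) oocytes from Het and KO females of both lines and 2-cell embryos from Het and KO females of the CabZ line, with 4 libraries per group. In a further experiment, wild-type GV oocytes were injected with Zscan4d RNA (3 libraries) or GFP RNA (4 libraries), matured, parthenogenetically activated and collected as 2-cell embryos. The controls of both knockout lines were heterozygous littermates, which carry Zp3-Cre and 1 floxed allele, rather than wild-type animals. Ages are not given in the sources used here, nor is it stated whether the CabZ 2-cell embryos were fertilised or parthenogenetic. Each RNA-seq library came from 10 pooled oocytes or embryos according to the methods, although the sample records speak of individual cells. Nothing says that libraries of a group came from separate females, so p-values measure the spread between libraries, which may be technical. ATAC-seq peaks, which mark accessible chromatin, were given for GV oocytes of the CabZ line, 3 libraries from Het and 3 from KO females.

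DNA methylation in the oocyte is laid down by Dnmt3a, a de novo DNA methyltransferase, with its catalytically inactive partner Dnmt3l, whereas Dnmt3b, the other de novo enzyme, is dispensable there. Dnmt1 copies the mark onto newly replicated DNA, and Uhrf1 recognises hemimethylated CpG sites and recruits Dnmt1 to them. After fertilisation most methylation is lost. Tet3, a dioxygenase stored in the egg, oxidises 5-methylcytosine, Dppa3 (Stella) shields the maternal genome from Tet3 and keeps Uhrf1 out of the oocyte nucleus, and the zinc-finger protein Zfp57 with its co-repressor Trim28 (Kap1) holds methylation at imprinted regions. Loss of any of several of these maternal products impairs the embryo.

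Expression is given as reads-per-million (RPM). An estimated 5819314 to 21869854 reads per library lay on genes. The RPM of the ZH and Zscan4 tables are relative to the total used by the authors, and those of the CabZ tables to the reads on listed genes, so levels were set side by side within the CabZ line alone. Of that total, 74.2 to 74.7% lay on listed genes in ZH Het and 66.0 to 68.2% in ZH KO libraries. A gene was called when limma gave a Benjamini-Hochberg adjusted p under 0.05 over all genes tested and a fold change above 2, both thresholds taken from the study. Genes with a mean of at least 5 RPM were tested, and log2 fold changes are on the log2(RPM + 1) scale. The deleted genes were checked first. Cabin1 had 117 to 209 reads in CabZ Het and 14 to 57 in CabZ KO oocytes, and 215 to 443 against 44 to 125 in 2-cell embryos. Hira had 2 to 14 reads in ZH Het and 0 to 13 in ZH KO oocytes, too few to check the labels. Zscan4d ranged from 332 to 711 RPM in the GFP and from 336 to 403 RPM in the libraries labelled Zscan4, so the transcript was not higher where Zscan4d RNA was to have been injected. The GFP libraries already held the transcript at this stage, so it could not check the labels of these libraries. The paper reported higher Zscan4 after injection than in uninjected oocytes, by qRT-PCR, immunofluorescence and western blot. Whether the labels hold or the injected RNA was not captured cannot be told apart here, and other reasons were not tested. All 10 oocyte markers were found in every GV table. Of 10 granulosa and cumulus cell markers, between 2 and 5 per table reached 5 RPM in any library. Cyp19a1 and Kitl reached it in every table, and Fshr in every table but that of Zscan4. Has2 stayed under 5 RPM in all 4 tables and Amh was not analysed here.

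**Figure D1:**
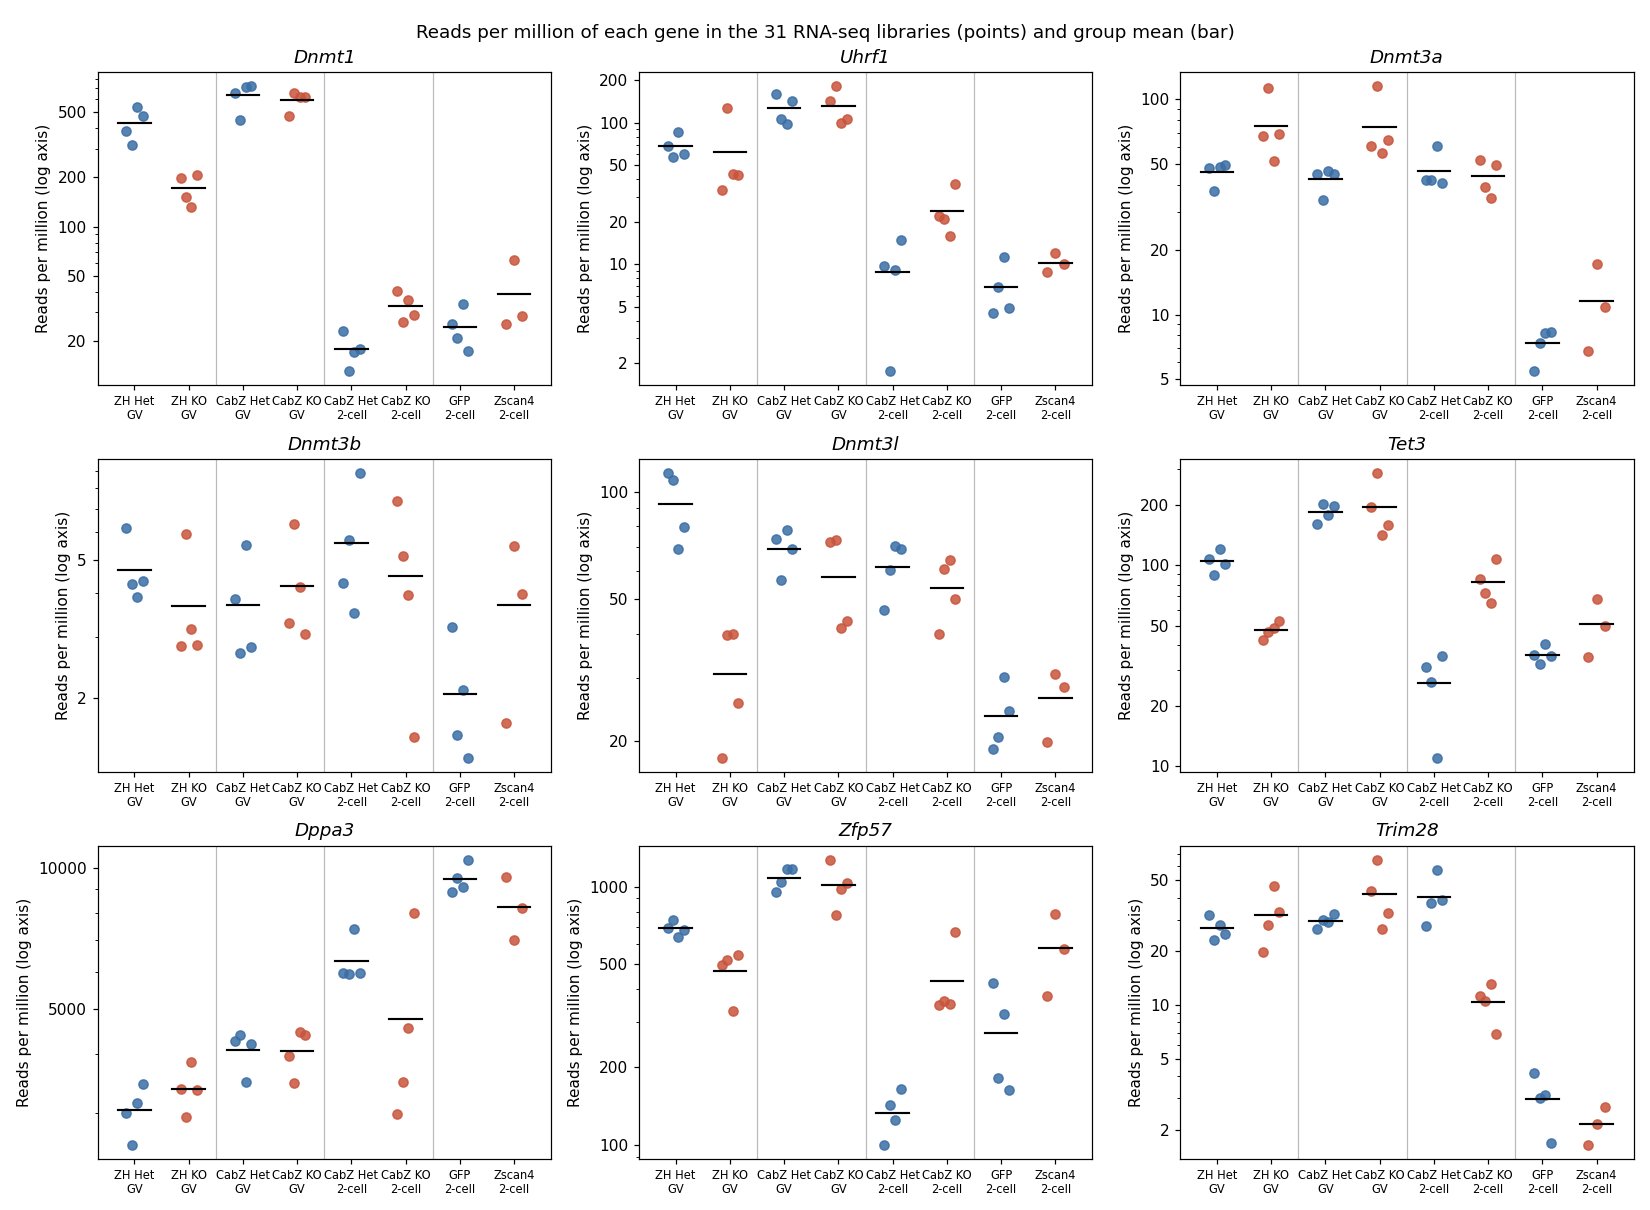
RPM (log axis) of each gene in every RNA-seq library (points, blue for control groups and red for KO or Zscan4 groups) with the group mean (bar), and grey lines between tables. In ZH oocytes, Dnmt1, Dnmt3l and Tet3 lie lower in every KO library than in every Het library, and in CabZ 2-cell embryos Tet3 and Zfp57 lie higher and Trim28 lower in every KO library.

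In control oocytes the 9 transcripts spanned a wide range of levels. In CabZ Het GV oocytes Dppa3 led with 4580 ± 461 RPM per kb of exon (SD, n = 4), and Zfp57 followed with 286 ± 28.1. Dnmt1 had 86.1 ± 17.5, Uhrf1 29.8 ± 6.80 and Dnmt3l 23.2 ± 3.12 RPM per kb of exon. The ranges of Uhrf1 and Dnmt3l overlapped, and they were the only neighbours in the order of this group whose ranges did. Tet3 had 11 ± 1.17, Trim28 7.13 ± 0.548 and Dnmt3a 2.56 ± 0.342 RPM per kb of exon. Dnmt3b was lowest with 0.727 ± 0.254. Thus the partner Dnmt3l stood above the enzyme Dnmt3a per unit of exon length, and the corepressor Trim28 far below Zfp57. Exon length here counts all annotated exons of a gene, 16.64 kb for Dnmt3a and 2.99 kb for Dnmt3l. Before division by length the CabZ Het means of Dnmt3l and Dnmt3a were 69.2 and 42.6 RPM, closer in ratio.

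Dnmt3b lay under the floor for testing in 3 of the 4 tables. It had 39 to 95 reads per library in the ZH table, 28 to 61 in CabZ oocytes and 20 to 113 in the Zscan4 table. Its groups overlapped in all of these (two-sided exact permutation test on log2(RPM + 1), p = 0.31, 0.63 and 0.17). In CabZ 2-cell embryos it was tested, with 5.59 ± 2.36 RPM in Het and 4.49 ± 2.42 RPM in KO embryos (SD, n = 4), and was not called (limma, adjusted p = 0.59).

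In GV oocytes lacking Hira, 3 of the 8 members tested, Dnmt1, Dnmt3l and Tet3, were called lower and none was called higher. Over all 9310 genes tested, 16.0% were called lower and 12.2% higher in ZH KO oocytes. The median log2 fold change was -0.45 over the members and -0.18 over all genes. Dnmt1, the maintenance methyltransferase (chromosome 9 of GRCm38, 20907209 to 20959888, minus strand), had 385, 315, 542 and 472 RPM in the 4 ZH Het libraries and 199, 151, 132 and 208 RPM in the 4 ZH KO libraries. Every KO library lay below the lowest Het library. The means were 428 ± 99.5 and 172 ± 36.7 RPM (SD, n = 4), 2.49-fold lower in KO (log2 fold change -1.30, standard error 0.21, limma adjusted p = 0.0005).

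Dnmt3l, the inactive partner of the de novo enzymes (chromosome 10, 78041947 to 78063622, plus strand), fell most among the members in ZH KO oocytes. It had 113, 108, 69.2 and 79.8 RPM in ZH Het and 17.9, 39.6, 40 and 25.5 RPM in ZH KO libraries. The groups were separated by a gap wider than the spread within the KO group. The mean was 3.01-fold lower in KO (log2 fold change -1.60, standard error 0.27, limma adjusted p = 0.00075). The gene overlaps Aire on the other strand, and the library type does not mark strand. Aire itself had 3.02 to 7.62 RPM in ZH Het and 1.54 to 3.99 RPM in ZH KO oocytes, well under the level of Dnmt3l.

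Tet3, the dioxygenase of the egg (chromosome 6, 83362373 to 83459084, minus strand), had 107, 89.2, 121 and 102 RPM in ZH Het and 42.3, 46.8, 48.6 and 52.9 RPM in ZH KO libraries. Its KO values were the tightest of the called members. The mean was 2.20-fold lower in KO (log2 fold change -1.11, standard error 0.15, limma adjusted p = 0.00017). With libraries brought to a common median, or scaled to the reads of the table, Tet3 changed by -0.91 and -0.97 on the log2 scale. It was then no longer past 2-fold, while its adjusted p stayed at 0.00065 and 0.00042. The first of these scalings moved the median log2 fold change over all genes from -0.18 to 0.02, and the share of called genes that were higher in ZH KO from 43.4 to 61.3%.

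Dnmt3a went the other way in ZH KO oocytes but did not reach 2-fold. It (chromosome 12, 3806007 to 3914443, plus strand) had 47.8, 37.6, 48.3 and 49.6 RPM in Het and 67.5, 113, 51.8 and 68.9 RPM in KO libraries. No KO library lay as low as a Het library, and replicate 2 of the KO group was the highest. The log2 fold change was 0.66 (standard error 0.23, limma adjusted p = 0.030), and leaving out 1 library in turn gave adjusted p from 0.0088 to 0.086. Zfp57 (chromosome 17, 37001163 to 37010635, plus strand) had 692, 743, 640 and 680 RPM in Het and 497, 519, 329 and 542 RPM in KO oocytes. Its groups did not overlap either, and the log2 fold change of -0.57 (adjusted p = 0.015) was likewise short of 2-fold. With libraries brought to a common median it was -0.36 (limma adjusted p = 0.11), and scaled to the reads of the table -0.42 (limma adjusted p = 0.064). In all, the groups of 5 of the 8 members tested did not overlap, against 48.5% of all genes tested.

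The remaining members gave no call in ZH oocytes. Dppa3 (chromosome 6, 122626410 to 122630272, plus strand) ranged from 2560 to 3460 RPM in Het and from 2930 to 3850 RPM in KO oocytes. Its log2 fold change of 0.15 had a 95% interval from -0.16 to 0.46. Trim28 (chromosome 7, 12999114 to 13031035, plus strand) ranged from 23.1 to 31.9 RPM in Het and from 19.8 to 46.8 RPM in KO oocytes, with an interval from -0.36 to 0.71. Uhrf1 (chromosome 17, 56303321 to 56323486, plus strand) had 68.7, 57.2, 86.2 and 60.5 RPM in Het and 33.7, 128, 43.8 and 42.6 RPM in KO oocytes. Replicate 2 of the KO group stood above all Het libraries, and the other 3 KO libraries stood below them. The log2 fold change was -0.33 (limma adjusted p = 0.45) and, without that library, -0.74 (adjusted p = 0.0066), still under 2-fold.

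Other transcripts moved with the genotype in the same libraries. The 10 oocyte markers summed to 14900 to 16600 RPM in ZH Het and to 6210 to 14700 RPM in ZH KO oocytes. The 4 markers of the 2-cell embryo with a row in this table summed to 10.0 to 18.8 RPM in Het and to 331 to 640 RPM in KO oocytes. Among granulosa and cumulus cell markers, 5 of 10 reached 5 RPM in any library, and the list summed to 29.1 to 34.6 RPM in Het and 27.7 to 59.2 RPM in KO oocytes. Cyp19a1, Fshr, Inha, Kitl and Ptgs2 were those that reached it, while Foxl2, Has2, Hsd17b1 and Inhba stayed under 5 RPM. Their part in the changes of the members was not tested. In RNA from pooled cells a change in RPM also cannot be told apart from a change in the total RNA of the oocyte.

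**Figure D2:**
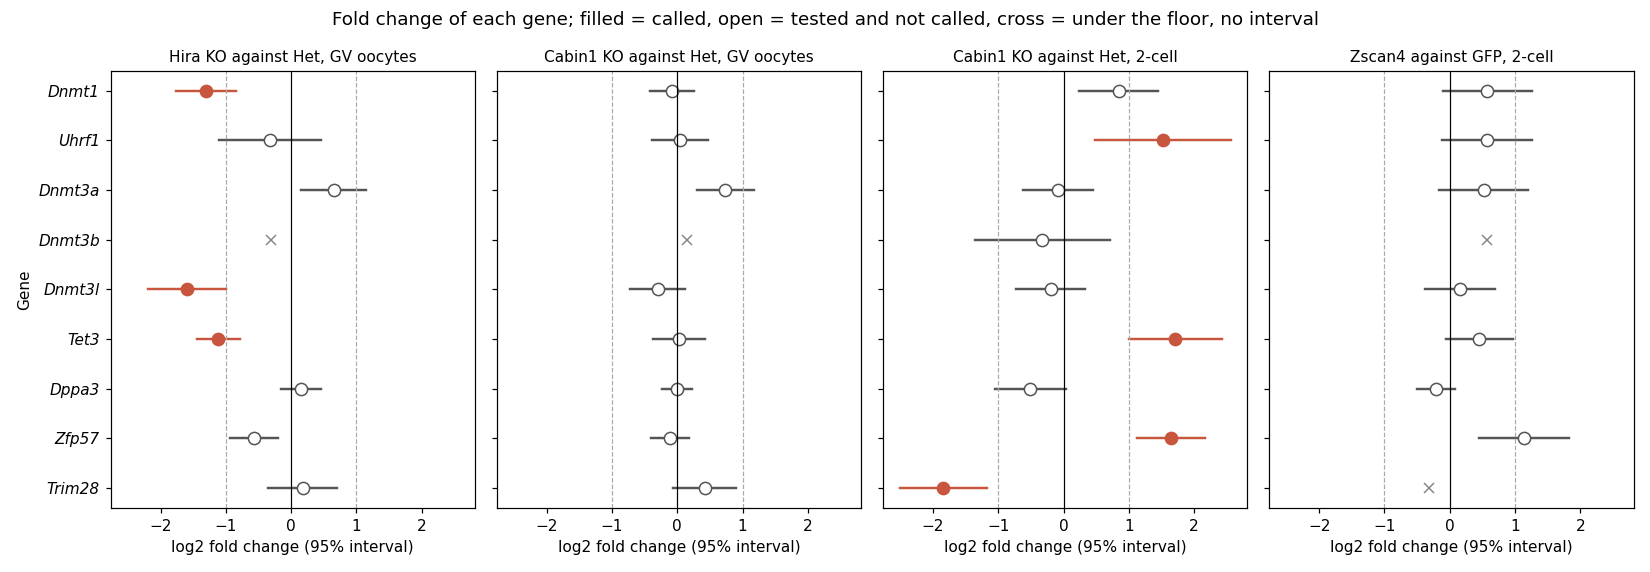
Log2 fold change (x axis) of each gene (y axis) in the 4 comparisons with its 95% interval, filled red where called, open where tested and not called, and a cross without interval where the gene was under the floor; dashed lines mark 2-fold. Of 8, 8, 9 and 7 genes tested, 3, 0, 4 and 0 were called.

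In GV oocytes lacking Cabin1 none of the 8 members tested was called by limma, and 1 of them, Dnmt3a, had an unadjusted p under 0.05. Over all 9523 genes tested, 3.37% were called higher and 1.70% lower. Dnmt3a came nearest. It had 44.7, 34.1, 46.5 and 45.0 RPM in the CabZ Het and 60.5, 115, 56.3 and 64.7 RPM in the CabZ KO libraries. Every KO library lay above the highest Het library, which held for 1 of the 8 members tested and, in either direction, for 20.9% of all genes tested. The log2 fold change was 0.73 (standard error 0.20, limma adjusted p = 0.024), under 2-fold. As in ZH KO oocytes, replicate 2 of the KO group was the highest. The antisense gene Dnmt3aos had at most 1.17 RPM in any library of either GV table.

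The 3 members that fell in ZH KO oocytes were not called in CabZ KO oocytes. Dnmt1 had 655, 447, 717 and 723 RPM in CabZ Het and 472, 655, 622 and 618 RPM in CabZ KO oocytes. The groups overlapped, and the 95% interval of the log2 fold change, -0.42 to 0.25, did not hold a 2-fold decrease. Tet3 ranged from 160 to 202 RPM in Het and from 141 to 288 RPM in KO oocytes, with an interval from -0.37 to 0.43. Dnmt3l ranged from 56.4 to 78.1 RPM in Het and had 72.1, 73.3, 41.5 and 43.3 RPM in KO oocytes. The last 2 KO libraries lay below all Het libraries and the first 2 within their range (interval from -0.72 to 0.12). Whether the effects of Hira and Cabin1 loss on these genes differ was not tested, since the tables were normalised separately.

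Dppa3, Uhrf1, Zfp57 and Trim28 were also without a call. Dppa3 had 4080 ± 411 RPM in Het and 4070 ± 458 RPM in KO oocytes (SD, n = 4), with the narrowest interval of the members, -0.24 to 0.23. Zfp57 had 1080 ± 106 and 1010 ± 204 RPM and Uhrf1 127 ± 29.0 and 132 ± 38.0 RPM. Trim28 ranged from 26.9 to 32.4 RPM in Het and had 43.7, 65.3, 26.9 and 32.7 RPM in KO oocytes, so that replicates 1 and 2 of the KO group stood clear of the Het range and replicate 4 just above it (log2 fold change 0.42, adjusted p = 0.24). In the same libraries the granulosa and cumulus cell markers, 3 of 10 of which reached 5 RPM, summed to 41.5 to 56.9 RPM in Het and 83.9 to 129 RPM in KO oocytes. Cyp19a1, Fshr and Kitl were those that reached it, while Has2, Inha, Inhba and Ptgs2 stayed under 5 RPM. Oocyte markers summed to 15800 to 23800 and 14400 to 17900 RPM, and 2-cell markers to 18.4 to 26.7 and 101 to 144 RPM. Their part in the members' values was not tested.

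At the 2-cell stage 4 of the 9 members were called in the CabZ line. Tet3, Zfp57 and Uhrf1 were higher and Trim28 was lower in CabZ KO than in CabZ Het embryos. Over all 11151 genes tested, 22.7% were called higher and 23.8% lower, so that calls were frequent at this stage among genes in general. The groups of 5 of the 9 members did not overlap, against 49.4% of all genes tested. The median log2 fold change of the members was -0.08, beside -0.02 over all genes.

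Tet3 had 31.3, 26.4, 11 and 35.4 RPM in the CabZ Het and 85.2, 72.8, 64.6 and 107 RPM in the CabZ KO 2-cell libraries. The lowest KO library stood well above the highest Het library. The mean was 3.16-fold higher in KO (log2 fold change 1.71, standard error 0.33, limma adjusted p = 0.00072). Zfp57, the zinc-finger protein of imprint protection, had 100, 143, 125 and 164 RPM in Het and 347, 361, 350 and 665 RPM in KO embryos. Here too every KO library exceeded every Het library, and replicate 4 of the KO group stood apart from the other 3. The mean was 3.24-fold higher in KO (log2 fold change 1.65, standard error 0.24, limma adjusted p = 9.7e-05).

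Uhrf1, the recruiter of Dnmt1, was low in the Het embryos, with 14 to 122 reads per library. It had 9.68, 1.76, 9.15 and 14.8 RPM in Het and 21.9, 20.9, 15.9 and 37.1 RPM in KO embryos. The gap between the groups was small, 14.8 to 15.9 RPM, and Het replicate 2 rested on 14 reads. The log2 fold change was 1.52 (standard error 0.49, limma adjusted p = 0.016). Without Het replicate 2 it was 0.995, and Uhrf1 was then just under 2-fold and not called (adjusted p = 0.037). Dnmt1 had 23.1, 13.1, 17.2 and 17.8 RPM in Het and 40.4, 26.0, 35.4 and 29.0 RPM in KO embryos. The groups did not overlap, and its log2 fold change, 0.85 with a standard error of 0.28 (limma adjusted p = 0.020), did not reach 2-fold. With libraries brought to a common median it was 1.03 and called (adjusted p = 0.0073), the median over all genes then being 0.16 in place of -0.02.

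Trim28, the co-repressor recruited by Zfp57, changed in the opposite direction to its partner. It had 27.8, 37.5, 57.6 and 38.8 RPM in Het and 11.3, 10.5, 13.1 and 6.87 RPM in KO embryos. The KO values rested on 40 to 83 reads per library and all lay under the lowest Het value. The mean was 3.87-fold lower in KO (log2 fold change -1.84, standard error 0.31, limma adjusted p = 0.00028). Zbtb45, which overlaps Trim28 on the other strand, had 3.51 to 6.80 RPM in Het and 4.63 to 10.8 RPM in KO embryos. Reads of the 2 genes could not be told apart by strand, and the ranges of Zbtb45 overlapped.

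Dppa3 varied widely between KO embryos. It had 5960, 5940, 7400 and 5950 RPM in Het and 2980, 3480, 4550 and 8020 RPM in KO libraries. The first 3 KO libraries lay below every Het library and replicate 4 above them all (log2 fold change -0.51, standard error 0.25, limma adjusted p = 0.10). Without KO replicate 4 the log2 fold change was -0.80 (adjusted p = 0.0021), still under 2-fold. The pseudogene Dppa3-ps, to which reads of Dppa3 can align, ranged from 1210 to 1550 RPM in Het and from 588 to 1710 RPM in KO embryos. The level of Dppa3 is uncertain to that extent. Dnmt3a and Dnmt3l gave no call. Dnmt3a ranged from 41.0 to 60.4 RPM in Het and from 34.8 to 52.0 RPM in KO embryos (95% interval -0.61 to 0.45), and Dnmt3l from 46.6 to 70.3 and from 39.9 to 64.3 RPM (-0.72 to 0.32).

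Oocyte markers taken as a sum were also higher in the KO embryos. The 10 oocyte markers summed to 2520 to 4120 RPM in Het and to 5700 to 8420 RPM in KO 2-cell embryos, without overlap. Markers of the 2-cell embryo, of which 5 of 6 had a row and reached 5 RPM, summed to 858 to 1420 RPM in Het and to 626 to 2130 RPM in KO embryos. Of the granulosa and cumulus cell markers 3 of 10 reached 5 RPM, namely Cyp19a1, Fshr and Kitl. The list summed to 11.8 to 16.6 RPM in Het and 47.3 to 59.7 RPM in KO embryos, without overlap. Foxl2, Has2, Hsd17b1 and Ptgs2 stayed under 5 RPM. KO libraries were shallower, with 5819314 to 6330244 reads on genes against 7947418 to 8239523. What part these differences had in the calls was not tested.

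Both stages of the CabZ line can be set side by side. In Het animals the mean RPM of Dnmt1 was 35.7-fold lower in 2-cell embryos than in GV oocytes, that of Uhrf1 14.4-fold, of Zfp57 8.15-fold and of Tet3 7.08-fold lower. In KO animals the same 4 transcripts were 18.1-, 5.52-, 2.36- and 2.37-fold lower. The drop between the stages was thus smaller in KO than in Het for each of the 4. As the oocyte means of these 4 differed little by genotype, this restates the 2-cell difference given above. Trim28 was 1.36-fold higher in Het 2-cell embryos than in Het oocytes and 4.03-fold lower in KO 2-cell embryos than in KO oocytes. Dppa3 was 1.55-fold higher in Het and 1.17-fold higher in KO embryos than in oocytes of the same genotype. These are ratios of group means from separately normalised tables and were not tested.

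**Figure D3:**
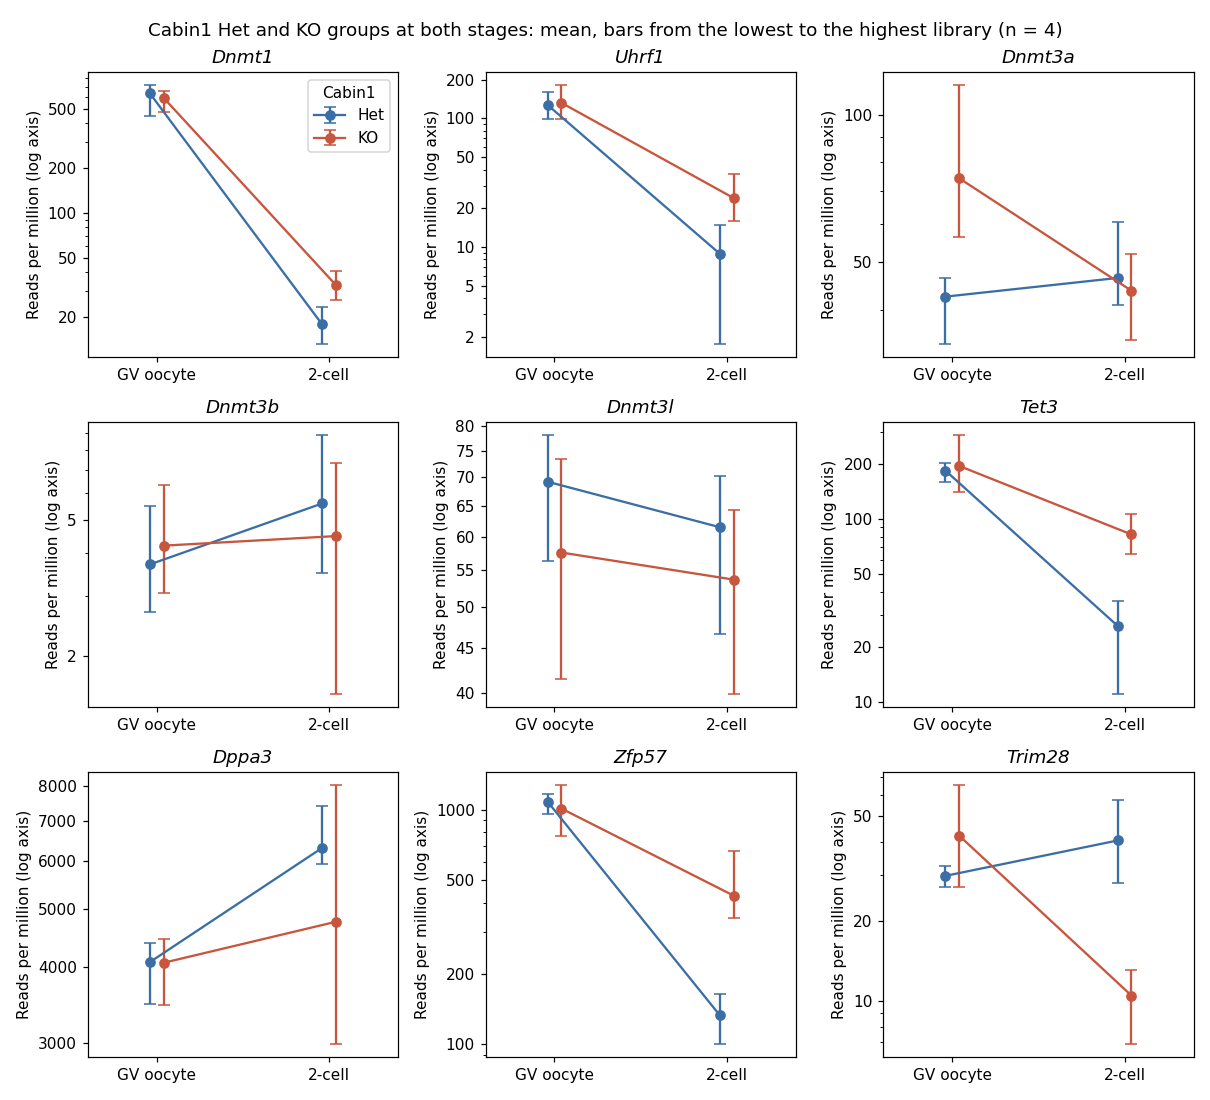
Mean RPM (log axis) of each gene in CabZ Het (blue) and CabZ KO (red) GV oocytes and 2-cell embryos, with bars from the lowest to the highest of 4 libraries. Dnmt1, Uhrf1, Tet3 and Zfp57 start level and end higher in KO, and Trim28 ends at 10.5 RPM in KO against 40.4 RPM in Het.

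In parthenogenetic 2-cell embryos none of the 7 members tested was called by limma between the libraries labelled Zscan4 and those labelled GFP. Zscan4d itself was not higher in the libraries labelled Zscan4 and could not check their labels. Of the 7 members 1, Zfp57, had an unadjusted p under 0.05. Over all 7118 genes tested, 0.0843% were called higher and 1.29% lower. Zfp57 had the largest difference. It had 423, 181, 321 and 163 RPM in the GFP libraries and 378, 781 and 575 RPM in the libraries labelled Zscan4. The groups overlapped, since replicate A of the Zscan4 group lay below replicate A of the GFP group. Its log2 fold change was 1.14 (standard error 0.32), and its unadjusted p of 0.0033 became 0.086 after adjustment. Without Zscan4 replicate A it was 1.41 and passed (limma, adjusted p = 0.028), and the number of all genes called higher went from 6 to 207. The groups of every tested member overlapped, whereas they did not for 16.9% of all genes tested.

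Dnmt1 ranged from 17.4 to 33.6 RPM in the GFP group and had 25.3, 62.9 and 28.5 RPM in the libraries labelled Zscan4, where replicate B alone exceeded the GFP range (log2 fold change 0.58, adjusted p = 0.33). Replicate B was also the highest of all 7 libraries for Tet3, at 68.3 RPM, and for Dnmt3a, at 17.2 RPM. Uhrf1 had 4.53 to 11.3 RPM with GFP and 8.80 to 12 RPM in those labelled Zscan4. Dnmt3l had 19.0 to 30.3 and 19.8 to 30.8 RPM. Dppa3 was abundant in both groups, 9480 ± 703 RPM (SD, n = 4) with GFP and 8250 ± 1280 RPM (SD, n = 3) in the libraries labelled Zscan4. Trim28 lay under the floor with 25 to 139 reads per library, and its groups overlapped (two-sided exact permutation test, p = 0.29). Oocyte markers summed to 4760 to 5620 RPM with GFP and 4610 to 5280 RPM in the libraries labelled Zscan4. Markers of the 2-cell embryo summed to 780 to 1200 and 539 to 769 RPM, without overlap, and their part in the members' values was not tested.

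Pairs of members that act together or against each other were compared as ratios within each library, in 12 tests over the 4 tables. The ratio of Dnmt3l to Dnmt3a reads was 1.99 (geometric mean, range 1.43 to 2.88) in ZH Het oocytes and 0.403 (0.265 to 0.773) in ZH KO oocytes, 4.93-fold lower. In CabZ oocytes it was 1.63 (1.53 to 1.68) in Het and 0.782 (0.636 to 1.19) in KO, 2.08-fold lower. In both lines the ranges of Het and KO oocytes did not overlap. At the 2-cell stage the ratio was 1.32 in CabZ Het and 1.22 in CabZ KO embryos, and the ranges overlapped. The ratio of Zfp57 to Trim28 was 3.35 (2.16 to 4.21) in CabZ Het and 40.6 (26.7 to 96.7) in CabZ KO 2-cell embryos, 12.1-fold higher. The ratio of Dppa3 to Uhrf1 was 906 (402 to 3370) in CabZ Het and 193 (136 to 285) in CabZ KO embryos, 4.69-fold lower. Het replicate 2, with 14 reads of Uhrf1, gave the highest of these ratios, and without it the log2 difference was -1.60 in place of -2.23. Each of these 4 differences reached p = 0.0286 in a two-sided exact permutation test, the smallest p that 4 libraries against 4 allow, and an adjusted p of 0.0858 over the 12 tests, so none passed the correction. In the libraries labelled Zscan4 the ratio of Zfp57 to Trim28 was 2.95-fold higher (exact p = 0.0571, the smallest for 4 against 3, adjusted p = 0.137).

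Other genes of DNA methylation were described from a list of 69 genes in 6 roles. In ZH KO oocytes 47 of them were tested, 1 was called higher and 7 lower, with a median log2 fold change of -0.48 beside -0.18 over all genes. Among all genes 12.2% were called higher and 16.0% lower. The share of the list called lower was thus near that of genes in general, and the share called higher was smaller than theirs. Shmt1, the cytosolic serine hydroxymethyltransferase of folate metabolism, was higher at 14.0 ± 3.67 against 3.64 ± 1.07 RPM (SD, n = 4). Tet1, another dioxygenase of the Tet family, was lower at 2.66 ± 0.212 against 8.16 ± 0.938 RPM (log2 fold change -1.32, limma adjusted p = 0.00019). Smug1, a uracil-DNA glycosylase, and Mthfd1, an enzyme of folate metabolism, were lower with log2 fold changes of -1.55 and -1.19. None of the 5 tested genes of de novo methylation and its chromatin cues and none of the 4 tested methyl-CpG readers was called. In CabZ KO oocytes 1 of 48 was called, Daxx, an H3.3 chaperone that works with Atrx. Daxx had 10.5 ± 1.36 RPM in Het and 22.8 ± 7.48 RPM in KO oocytes, just past 2-fold (log2 fold change 1.01, limma adjusted p = 0.0044). Atrx, named here after its values were seen, was not called in CabZ KO oocytes (log2 fold change 0.17, limma adjusted p = 0.52). In ZH KO oocytes Atrx was called lower (log2 fold change -1.05, limma adjusted p = 0.00077). No gene of the list was called in both GV tables.

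In CabZ KO 2-cell embryos 58 genes of the list were tested, 6 were called higher and 15 lower, with a median log2 fold change of -0.38 beside -0.02 over all genes. Among all genes 22.7% were called higher and 23.8% lower. Here too the share of the list called lower was near that of genes in general, and the share called higher was smaller than theirs. Of the 13 tested genes of methyl donor supply 7 were lower and 1 was higher, and the median of this role was -1.05. Mat2a, the catalytic subunit that makes S-adenosylmethionine, the methyl donor of all DNA methyltransferases, fell from 133 ± 20.2 to 22.0 ± 8.40 RPM (SD, n = 4; log2 fold change -2.62, limma adjusted p = 1.9e-05). Its regulatory subunit Mat2b and the genes of folate and methionine metabolism Mtrr, Tyms and Shmt1 were also lower, and are named here after their values were seen. Shmt2, the mitochondrial counterpart of Shmt1, was higher, at 139 ± 31.6 against 39.1 ± 19.3 RPM. Gadd45g, of a family linked to active demethylation, was higher at 30.9 ± 8.41 against 5.97 ± 3.79 RPM, and Naa10, the catalytic subunit of an N-terminal acetyltransferase, was lower at 4.42 ± 1.97 against 24.7 ± 13.7 RPM. In the libraries labelled Zscan4 none of 42 genes tested was called by limma. An unadjusted p under 0.05 was found for 8 of the 42 and for 1445 of all 7118 genes tested.

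**Figure D4:**
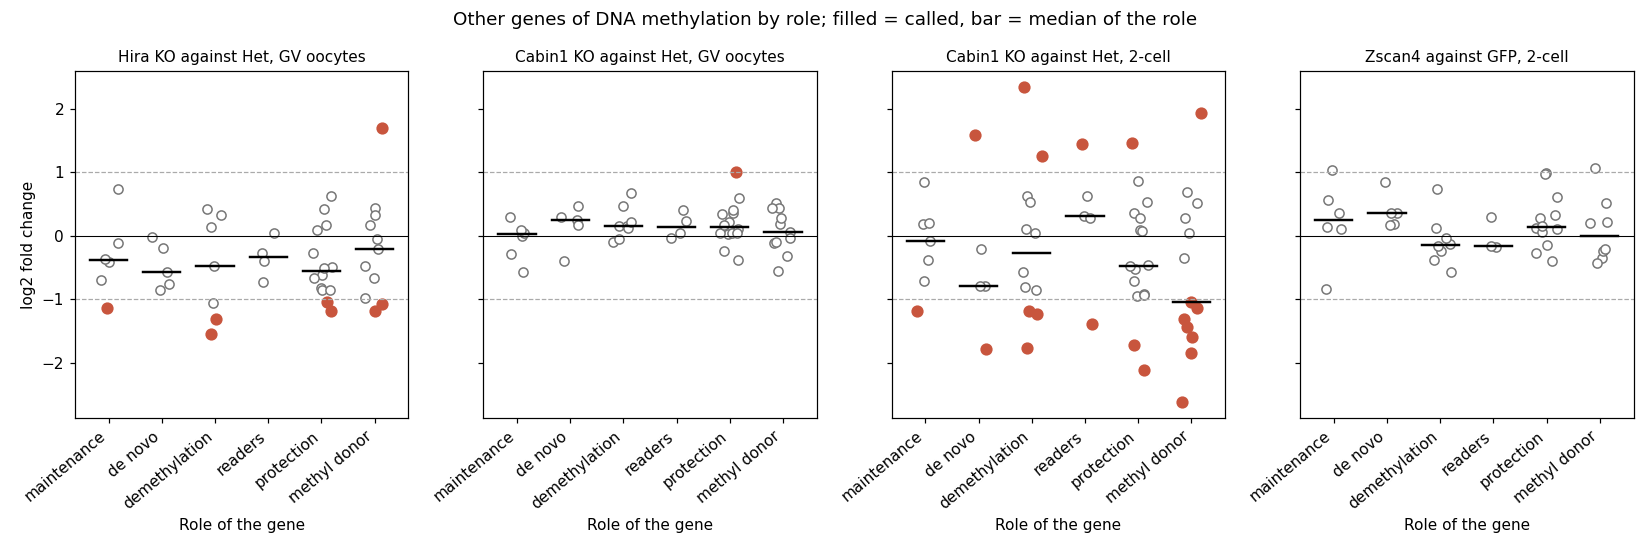
Log2 fold change (y axis) of the other genes of DNA methylation by role (x axis) in the 4 comparisons, filled red where called, with a bar at the median of the role and dashed lines at 2-fold. In CabZ KO 2-cell embryos the median of methyl donor supply lies at -1.05, and in the comparison of the libraries labelled Zscan4 no point is filled.

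The genes most like each called member were sought among 6145 genes with a mean of at least 5 RPM in every table, by Pearson r of log2(RPM + 1) minus the mean of the table's control group over 31 libraries. These libraries share their tables, controls and genotypes, so r is a description. Tet3 was most like Lef1 (r = 0.956) and Ccdc14 (0.954). Dnmt3l was most like Stbd1 (0.938) and Rnf167 (0.920), and Dnmt1 most like Kdm7a (0.931) and 2700049A03Rik (0.929). Zfp57 was most like Tgfb3 (0.904) and Gm4202 (0.897), and Uhrf1 most like Slc25a15 (0.878) and Eef2k (0.852). Trim28 was not among the 6145 genes, as it was under 5 RPM in the Zscan4 table.

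Chromatin at the start sites was read from the ATAC-seq peaks of CabZ GV oocytes, an independent measurement on the line whose oocytes gave no call. RefSeq gave 17 start sites for 8 members, and for Dppa3 the GENCODE start was used. A site had a peak when one overlapped the 500 bp to either side of it. Dnmt3l had a peak at its first start site in 5 of 6 libraries, with a fold enrichment over background of 3.15, 5.46 and 5.28 in Het and 5.15 and 3.94 in KO libraries A and C. The first start site of Uhrf1 had a peak in Het library C (3.81) and KO library A (4.68). The second had a peak in Het libraries B and C (4.0 and 3.81) and KO libraries A and C (4.68 and 4.43). The most upstream start site of Dnmt1 had a peak in KO libraries A and B (4.68 and 4.95) and in no Het library. The Dppa3 start had a peak in Het libraries B and C (4.0 and 4.69) and KO libraries B and C (7.20 and 4.43). At both downstream start sites of Zfp57 and at that of Trim28, Het library C alone had a peak (3.52). No library had one at the 3 start sites of Dnmt3a or at those of Dnmt3b and Tet3.

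These peaks stand against a background that differed between libraries. Het libraries A, B and C held 43399, 67074 and 111327 peaks and covered 7.49, 15.1 and 27.3% of the 32851 RefSeq start sites. KO libraries A, B and C held 46070, 19160 and 29600 peaks and covered 10.8, 3.40 and 4.34%. Of all start sites 13.9% had a peak in at least 2 Het libraries, as had 2 of the 17 sites of the members, and 3.73% in at least 2 KO libraries, as had 3 of the 17. No library had a peak at 65.3% of all start sites and at 10 of the 17 sites of the members. Peak number and genotype cannot be told apart here, an exact test of 3 libraries against 3 cannot go below p = 0.10, and no test was made.

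**Figure D5:**
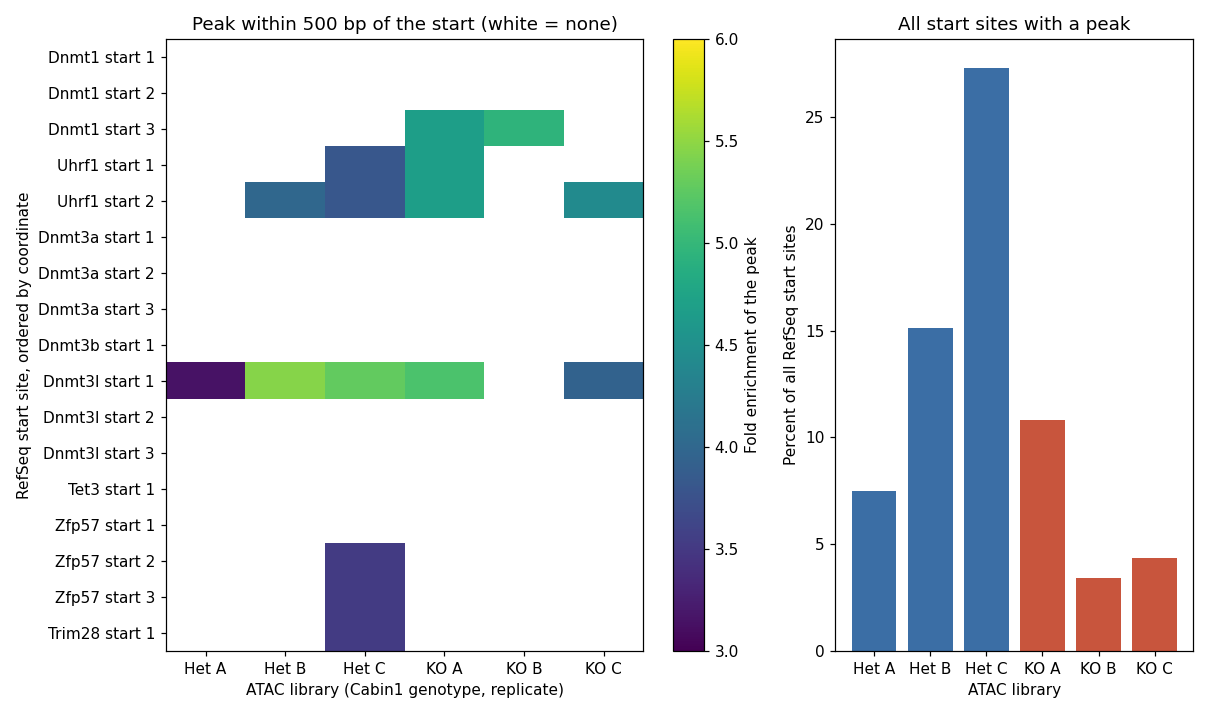
Left, fold enrichment (colour) of the highest peak within 500 bp of each RefSeq start site of the members (rows, numbered by coordinate) in the 6 ATAC-seq libraries (columns), white where there was none; right, percent of all RefSeq start sites with a peak in each library. Dnmt3l start 1 is filled in 5 libraries, and Dnmt3a has no filled field.

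The 250 bases upstream of 4 start sites are shown to set those with peaks beside one without. Sequences are from RefSeq (GRCm38.p6), written 5′ to 3′ on the strand of the gene, and capitals mark CpG dinucleotides (CG, which reads the same on both strands), the substrate of these enzymes. They are chr10:78042037-78042286 (plus strand) for Dnmt3l, whose start site lies in an intron of Aire on the other strand, chr17:56304063-56304312 (plus) for Uhrf1, chr9:20959889-20960138 (minus) for Dnmt1 and chr12:3806910-3807159 (plus) for Dnmt3a.
Dnmt3l: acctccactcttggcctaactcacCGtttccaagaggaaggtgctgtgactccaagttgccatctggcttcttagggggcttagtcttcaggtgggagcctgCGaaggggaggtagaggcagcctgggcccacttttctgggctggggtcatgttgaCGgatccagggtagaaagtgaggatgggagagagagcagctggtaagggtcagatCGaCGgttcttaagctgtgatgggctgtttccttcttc
Uhrf1: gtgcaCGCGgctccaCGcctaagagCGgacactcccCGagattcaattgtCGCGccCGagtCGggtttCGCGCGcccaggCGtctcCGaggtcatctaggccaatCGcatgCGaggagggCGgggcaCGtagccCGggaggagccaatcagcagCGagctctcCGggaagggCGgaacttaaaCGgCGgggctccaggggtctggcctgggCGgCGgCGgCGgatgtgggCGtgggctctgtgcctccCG
Dnmt1: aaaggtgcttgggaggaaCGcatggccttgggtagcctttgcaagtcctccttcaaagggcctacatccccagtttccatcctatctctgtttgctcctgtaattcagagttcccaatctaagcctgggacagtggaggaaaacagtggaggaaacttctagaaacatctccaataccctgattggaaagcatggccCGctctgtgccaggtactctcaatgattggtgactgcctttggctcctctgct
Dnmt3a: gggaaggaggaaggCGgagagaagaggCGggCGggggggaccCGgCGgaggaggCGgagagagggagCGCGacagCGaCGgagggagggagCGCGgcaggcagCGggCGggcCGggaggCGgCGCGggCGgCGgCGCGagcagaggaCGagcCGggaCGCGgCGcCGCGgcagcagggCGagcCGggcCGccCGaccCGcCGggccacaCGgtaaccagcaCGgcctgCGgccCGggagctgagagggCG
The Dnmt3l stretch holds 5 CpG, a count reached by 55.6% of all RefSeq promoters of this length, and the Dnmt1 stretch 2, reached by 81.2%. Uhrf1 holds 30 CpG, reached by 5.94% of promoters, and Dnmt3a 40, reached by 1.31%. The median over all promoters was 6. Peaks were thus seen at starts with few and with many CpG, and the start with the most CpG of those shown had none in these libraries. A start without a peak in any library was common, at 65.3% of all start sites.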

How the data were processed

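RNA-seq (Smart-seq2 cDNA, Nextera XT, no strand information) was trimmed by the authors with TrimGalore 0.4.3 and aligned with STAR 2.5.3a to mm10, as their methods and processing notes give. In the ZH and Zscan4 tables the authors deposited FPKM over the whole gene span, introns included, with a small constant added. The values deposited by the authors for the CabZ tables were treated as a score, since they behave as reads divided by the span 2 times and scaled to 1 total. Both were restored to RPM from the spans. The size of 1 read was then estimated from the low values of each library, of which 84.9 to 89.3% were whole reads within 0.1. That share is partly set by the estimate itself, and all read counts given here rest on it. Estimated depth was 5819314 to 21869854 reads on genes per library, which limits genes with few reads. ATAC-seq reads were aligned with Bowtie2 2.3, and MACS2 peaks were called per library by the authors, who deposited fold enrichment (a ratio), -log10 p and q, and a score.

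Each table was fitted separately with limma 3.58.1 in R 4.3.3 (eBayes with trend) on log2(RPM + 1), for genes with a mean of at least 5 RPM. Benjamini-Hochberg adjustment ran over all genes tested, and a call needed an adjusted p under 0.05 and a fold above 2. Members under the floor and ratios were tested with exact permutation tests in scipy 1.17.1. Scripts were tested on simulated data. Columns without a sample numbered 0. Peaks within 500 bp of RefSeq starts were counted, and GENCODE M21 gave gene positions. Members and lists were chosen with earlier results of these data known. Named genes were all 9 members, at most 4 called genes of the list per table by absolute log2 fold change, list genes called in 1 direction in both GV tables, and the 2 genes most like each called member. Alternatives covered the scale, pseudocount, floor, scaling, variance prior, call rule, a replicate block and leaving out each library. Single values of some genes of the list are not reported here.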

Additional observations from a re-analysis of the deposited data

Results flagged for a closer look

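A single library stood apart from the other 3 of its group, by Dixon's ratio of gap to range, in 8 of the 63 groups of 4 libraries examined over the 9 genes, of which chance gives about 1 in 20. Dnmt3a accounted for 4 of them. It had 37.6 RPM in ZH Het replicate 2 and 34.1 RPM in CabZ Het GV replicate 2, the lowest of their groups, and 115 RPM in CabZ KO GV replicate 2 and 60.4 RPM in CabZ Het 2-cell replicate 3, the highest of theirs. ZH KO replicate 2 was the highest of its group for Uhrf1, at 128 RPM, and for Dnmt3b, at 5.92 RPM. Dppa3 had 7400 RPM in CabZ Het 2-cell replicate 3, and Zfp57 had 665 RPM in CabZ KO 2-cell replicate 4, both the highest of their groups.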

How the results depend on the processing

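The number of members called in ZH oocytes was 3 and ranged from 2 to 3 under the other settings, leaving out any 1 library included, except that it was 5 with no fold threshold. In CabZ oocytes it was 0 and became 1 with no fold threshold. In CabZ 2-cell embryos it was 4, became 1 on the FPKM scale, where of the called members only Zfp57 kept a mean of at least 1 FPKM, and 0 with values as deposited, which for most genes are far below the pseudocount. It was 3 with a floor of 20 RPM, 5 with libraries brought to a common median, 5 with no fold threshold, and 3 to 4 leaving out each library. In the Zscan4 table it was 0, and 0 to 1 leaving out each library, with 1 reached without Zscan4 replicate A. On the FPKM scale the other genes of DNA methylation called went from 8 to 1 in ZH oocytes, from 1 to 0 in CabZ oocytes and from 21 to 11 in CabZ 2-cell embryos. Start sites with a peak in at least 2 Het libraries went from 2 to 1 at a -log10 q of at least 5.

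The direction changed only for values that were not called. With values as deposited, the log2 difference became 0.00855 for Dppa3 in CabZ oocytes and, in CabZ 2-cell embryos, 0.000106 for Dnmt3a, 4.49e-05 for Dnmt3b, 0.00252 for Dnmt3l and 0.119 for Dppa3. Brought to a common median, Dnmt3a in CabZ 2-cell embryos became 0.0992, and the cause was not tested. Leaving out 1 library moved the log2 fold change of Trim28 in ZH oocytes between -0.0248 and 0.375. In CabZ oocytes it moved Dnmt1 between -0.248 and 0.0172, Uhrf1 between -0.123 and 0.166, Tet3 between -0.172 and 0.171, Dppa3 between -0.0805 and 0.0691, Zfp57 between -0.228 and 0.00991 and the log2 ratio of Dppa3 to Uhrf1 between -0.219 and 0.193. In CabZ 2-cell embryos it moved Dnmt3a between -0.17 and 0.047, Dnmt3b between -0.483 and 0.00533 and the log2 ratio of Dnmt3l to Dnmt3a between -0.317 and 0.107. With 1 library left out, ratios cannot go below an exact p of 0.0571.

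Pairing of libraries by replicate number was not seen, and so few libraries cannot exclude it. Same-numbered libraries deviated from their group means with correlations from -0.49 to 0.50 in the ZH table, and differently numbered ones from -0.51 to 0.55. Same-numbered correlations ran from -0.16 to 0.28 and from -0.08 to 0.19 in the CabZ tables and from -0.24 to 0.24 in the Zscan4 table. With the replicate number as a block, the members called stayed at 3, 0, 4 and 0. Dnmt3a, not called in either fit, had an adjusted p of 0.057 in ZH and 0.041 in CabZ oocytes with the block. Over all genes the block moved the calls in the Zscan4 table from 6 to 0 higher and from 92 to 42 lower.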

Other observations

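Dnmt3b and Trim28 were low and under the floor for testing in parthenogenetic 2-cell embryos. Trim28 had 3.00 ± 1.02 RPM in the GFP and 2.17 ± 0.514 RPM in the libraries labelled Zscan4 (SD, n = 4 and 3). Mat2a, the enzyme subunit that makes the methyl donor, had 9.55 to 15.5 RPM in the GFP and 20.1 to 34.5 RPM in the libraries labelled Zscan4. These ranges did not overlap, as was so for 16.9% of all genes tested there (log2 fold change 1.06, limma adjusted p = 0.063, not called). Pcna of the list went the other way, with 62.2 to 92.7 RPM in the GFP and 40.8 to 49.5 RPM in the libraries labelled Zscan4 (limma adjusted p = 0.059, not called). Of methyl donor supply, Shmt2 had 40.5 to 47.3 RPM in CabZ Het and 51.3 to 62.8 RPM in CabZ KO oocytes, under 2-fold (log2 fold change 0.43, limma adjusted p = 0.043). Its groups did not overlap, as was so for 20.9% of all genes tested in these oocytes. Nsd1 of the list was lower in KO without overlap, at 55.3 to 67.0 RPM in Het and 39.3 to 52.0 RPM in KO (limma adjusted p = 0.075, not called). Tet1 ranged from 10.3 to 17.7 RPM in CabZ Het and from 16.1 to 31.6 RPM in CabZ KO oocytes (log2 fold change 0.67, limma adjusted p = 0.055, not called). Cabin1 had 30.6 to 40.9 RPM in ZH Het and 7.57 to 12.1 RPM in ZH KO oocytes. Hira had 18.0 to 25.0 RPM in CabZ Het and 1.37 to 5.31 RPM in CabZ KO 2-cell embryos. Mat2a, Pcna, Shmt2, Nsd1, Tet1, Cabin1 and Hira are named in this section after their values were seen.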
